A study of Rattus norvegicus with 9 samples.

Results

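Aminoacyl-tRNA synthesis genes attach amino acids to their transfer RNAs, the step that feeds the ribosome. The 46 genes described here are those whose KEGG annotation in the deposited table names the pathway Aminoacyl-tRNA biosynthesis, out of 18629 genes in the table. By symbol and product they split into 22 enzymes of the cytosol, 17 enzymes of mitochondria (symbols ending in ars2, and LOC100911305, which RefSeq names Mars2 under the same gene ID) and 7 other genes. The other genes act on a tRNA after it is charged: Gatb, Gatc and Qrsl1 encode the subunits of the amidotransferase that makes mitochondrial glutaminyl-tRNA, Mtfmt formylates the mitochondrial initiator methionyl-tRNA, Pstk and Sepsecs convert seryl-tRNA to selenocysteinyl-tRNA, and LOC100909836 is listed as a Gatc-like gene.

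RNA was sequenced from primary cardiomyocytes of newborn SD rats (1 to 2 days old) after oligo(dT) enrichment, in 9 libraries. All cells were plated in 10% serum for 18 to 20 h. All were kept in 33 mM glucose and 100 nM insulin for 48 h, after 14 h in 1% serum with 1 g/L glucose, and all were infected with an adenovirus. The vector carried GFP (genotype label WT), Yap1 WT (Yap1 overexpression) or a Yap1 shRNA (Yap1 knock down), with 3 libraries each. No library from uninfected cells, from lower glucose or with a control hairpin was analysed here. The labels do not say whether the 3 libraries of a group came from separate isolations or dishes, so p-values measure only the spread between these libraries, which may be technical.

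Yap1 itself, the coactivator of the Hippo pathway, was at 197, 198 and 190 counts per 1000000 (CPM) in the GFP libraries, at 559, 812 and 622 CPM with Yap1 WT and at 95.4, 96 and 95.3 CPM with Yap1 shRNA. Depth differed by group: 14868180 to 15368473 assigned reads per GFP library, 10960051 to 11497104 with Yap1 WT and 6103221 to 6357403 with Yap1 shRNA. The 10 cardiomyocyte markers summed to between 28572 and 29126 CPM with GFP, between 5592 and 8273 CPM with Yap1 WT and between 1513 and 1844 CPM with Yap1 shRNA, and 10 of 10 fell in each comparison with GFP. The 8 fibroblast markers summed to 18573 to 19779, 12350 to 16734 and 7654 to 8381 CPM in the same order, sums made up mostly of Col1a1 and Col3a1: 3 of the 8 rose and 4 fell with Yap1 WT, and 1 rose and 7 fell with the hairpin. Of all tested genes, 32% rose and 31.8% fell with Yap1 WT, and 39.2% rose and 39.1% fell with the hairpin. Smooth muscle and pericyte markers (7 genes) summed to 8184 to 8707 CPM with GFP, 3465 to 4760 CPM with Yap1 WT and 3075 to 3484 CPM with the hairpin. Endothelial markers (6 genes) summed to 30.9 to 35.2, 51.2 to 53.9 and 42.2 to 49.4 CPM in the same order. Of 5 tested, 3 rose with Yap1 WT, and 4 rose and 1 fell with the hairpin. Epicardial markers (5 genes) summed to 58.7 to 60.7, 62.9 to 69.1 and 58.6 to 62.6 CPM. Of these, 2 rose and 2 fell in each comparison with GFP. Erythroid markers (4 genes) summed to at most 0.799 CPM. Neural and glial markers (4 genes) summed to 38.8 to 40.3, 51.1 to 62.3 and 136 to 157 CPM, of which Tubb3 alone averaged 33, 49.8 and 140 CPM, and macrophage markers (7 genes) to 35.9 to 38.9, 49.8 to 52.1 and 23.8 to 34.1 CPM, and no listed marker was at 0 in all 9 libraries. The part of these shifts in the results below was not tested, and in bulk RNA fewer cells of a type and less RNA per cell cannot be told apart.

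A synthetase activity recognises 1 amino acid and its tRNAs, and the cytosol and mitochondria mostly use products of separate nuclear genes. Cytosolic charging supplies all nuclear-encoded protein, while the mitochondrial enzymes serve the few respiratory chain subunits that the organelle translates itself, of which heart muscle makes much. Several cytosolic synthetases sit in a multi-synthetase complex. Many cytosolic synthetase genes are known targets of ATF4, the transcription factor of the integrated stress response, which binds composite C/EBP-ATF elements.

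RefSeq windows of 300 bases (250 before and 50 after the annotated start, rat build GRCr8) were found for 39 of the 46 genes. The letters TGATGNAA, the core of the C/EBP-ATF composite element, were searched on both strands. They were found in 7 of 18 cytosolic windows (38.9%), in 0 of 16 mitochondrial windows and in 0 of 5 other windows, against 3.82% of 27457 windows of all genes. Matches are a description of letters and not of binding. Stretches from 6 of them follow, 5′ to 3′ on the strand of the gene, because they hold the searched letters found in the largest share of cytosolic windows. Capitals mark the match, which reads TGATGCAA on one of the strands in each stretch. Their GRCr8 positions are chr1:208225335-208225362 for Cars, chr17:15193659-15193686 for Iars1, chr7:65023753-65023780 for Mars1, chr18:60275783-60275836 for Nars1, chr2:62114803-62114869 for Tars1 and chr5:146820191-146820212 for Yars1, with Yars1 on the plus strand and the others on the minus strand.
Cars: ggcgccgcggTTGCATCAgattctggaa
Iars1: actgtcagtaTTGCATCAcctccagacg
Mars1: cccgttccggTTGCATCAgcgtgggctc
Nars1: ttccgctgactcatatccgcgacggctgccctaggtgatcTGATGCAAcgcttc
Tars1: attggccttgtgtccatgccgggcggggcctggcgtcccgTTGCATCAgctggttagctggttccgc
Yars1: cgagctcagcTGATGCAAcctg

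The matches began 24 bases before the start in Iars1, 17 in Mars1, 14 in Nars1 and 27 in Tars1, and after the start in Cars (position 18) and Yars1 (position 39). Members with a match had a median log2 fold change of 1.38 with Yap1 shRNA against GFP (range 0.48 to 2.07), and the 11 cytosolic members with a window and no match had 0.70 (range -0.82 to 1.78). With Yap1 WT against GFP the medians were 0.57 and 0.36. The ranges of genes with and without a match overlapped in both comparisons. Sars1, the second-largest riser with the hairpin, had no match in its window.

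Cytosolic synthetases were higher in both Yap1 vector groups than with GFP, and more so with the hairpin. Of 21 tested cytosolic members, 18 rose and 1 fell with Yap1 shRNA against GFP, by edgeR's quasi-likelihood test at an adjusted p under 0.05. Across all 13708 tested genes, 78.3% were called in that comparison, 39.2% higher and 39.1% lower. Against the same GFP libraries, 19 of 21 rose and 1 fell with Yap1 WT, where 63.8% of all genes were called, 32% higher and 31.8% lower. Median log2 fold changes of the 21 were 0.92 (shRNA, range -0.82 to 2.07) and 0.43 (WT, range -0.86 to 1.02), and the medians of all tested genes were -0.01 and 0. The 3 libraries of a vector group lay entirely above or below the 3 GFP libraries for 21 of 21 members with the hairpin (80.2% of all genes) and for 20 of 21 with Yap1 WT (70.7%). Rises of at least 2-fold were called for 9 of 21 with the hairpin (19.2% of all genes) and for 1 of 21 with Yap1 WT (9.19% of all genes).

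**Figure D1:**
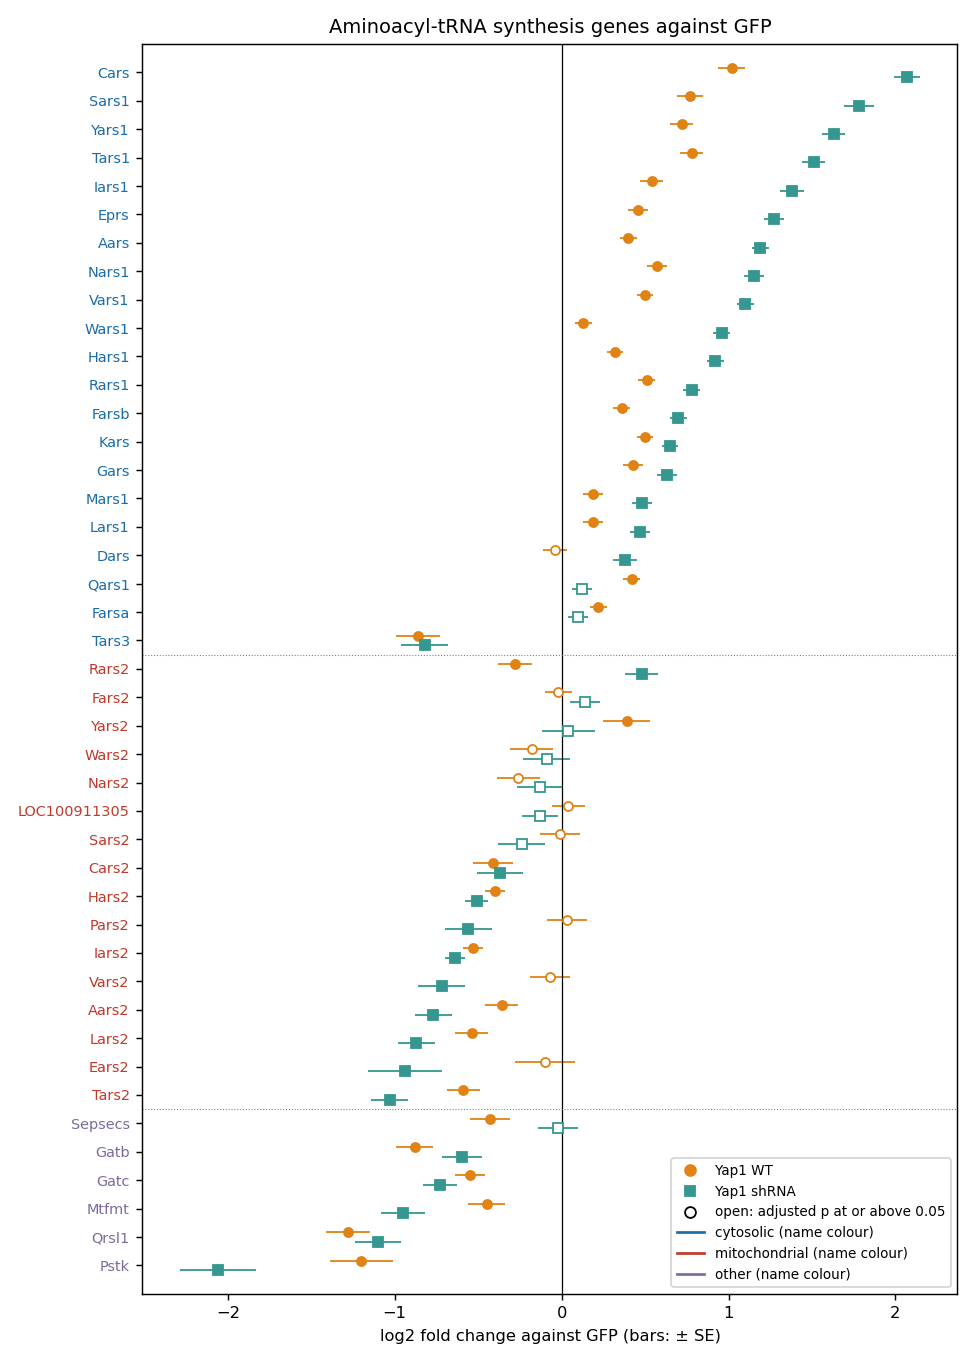
Log2 fold change against GFP (x axis, bars ± SE) of 43 tested genes, with Yap1 WT as circles and Yap1 shRNA as squares; filled symbols have an adjusted p under 0.05. The cytosolic genes at the top lie mostly right of 0, up to 2.07 for Cars with the hairpin, and the mitochondrial and other genes below lie mostly left of 0, down to -2.06 for Pstk.

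Cars, the cysteinyl-tRNA synthetase (gene ID 293638, chromosome 1, 216759367 to 216801652 in the deposited rn6 coordinates), rose most of all members in both comparisons. It was at 104, 102 and 103 CPM in the GFP libraries, 190, 240 and 198 CPM with Yap1 WT and 433, 425 and 439 CPM with Yap1 shRNA. The 3 groups did not overlap, and the shRNA libraries were the highest. Its log2 fold change against GFP was 2.07 ± 0.08 (SE) with the hairpin (4.2-fold, edgeR adjusted p = 7.88e-11) and 1.02 ± 0.08 with Yap1 WT (2.03-fold, edgeR adjusted p = 1.21e-07). In rn6 the gene lies within the span of Cttn on the same strand; Cttn had log2 fold changes of 0.26 with the hairpin and 0.05 with Yap1 WT (edgeR adjusted p = 0.333), and reads of overlapping genes may be split between them.

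Sars1, which charges serine tRNAs and also the selenocysteine tRNA (chromosome 2, 211219743 to 211235475, rn6), was at 293, 294 and 299 CPM with GFP, 436, 582 and 490 CPM with Yap1 WT and 1022, 992 and 1034 CPM with the hairpin. Every shRNA library exceeded every WT library, and every WT library exceeded every GFP library. The rises were 3.44-fold with the hairpin (log2 1.78 ± 0.09 SE, edgeR adjusted p = 5.77e-10) and 1.70-fold with Yap1 WT (log2 0.77 ± 0.08 SE, edgeR adjusted p = 3.96e-06). Sars1 was also the most abundant member per length, at 223 ± 4.18 transcripts per 1000000 (TPM, SD, n = 3) with GFP, 425 ± 62.3 TPM with Yap1 WT and 889 ± 44.2 TPM with the hairpin.

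Yars1, the tyrosyl-tRNA synthetase, was at 130, 120 and 121 CPM with GFP, 186, 226 and 200 CPM with Yap1 WT and 362, 379 and 407 CPM with Yap1 shRNA. Again the groups were fully separated in the order GFP, WT, shRNA. It rose 3.09-fold with the hairpin (log2 1.63 ± 0.07 SE, edgeR adjusted p = 3.74e-10) and 1.65-fold with Yap1 WT (log2 0.72 ± 0.07 SE, edgeR adjusted p = 1.97e-06). Tars1, the main cytosolic threonyl-tRNA synthetase, followed the same order. Its CPM values were 148, 154 and 158 with GFP, 235, 295 and 258 with Yap1 WT and 431, 425 and 451 with the hairpin. The changes were 2.84-fold (log2 1.51 ± 0.07 SE, edgeR adjusted p = 7.22e-10) and 1.71-fold (log2 0.78 ± 0.07 SE, edgeR adjusted p = 1.02e-06).

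**Figure D2:**
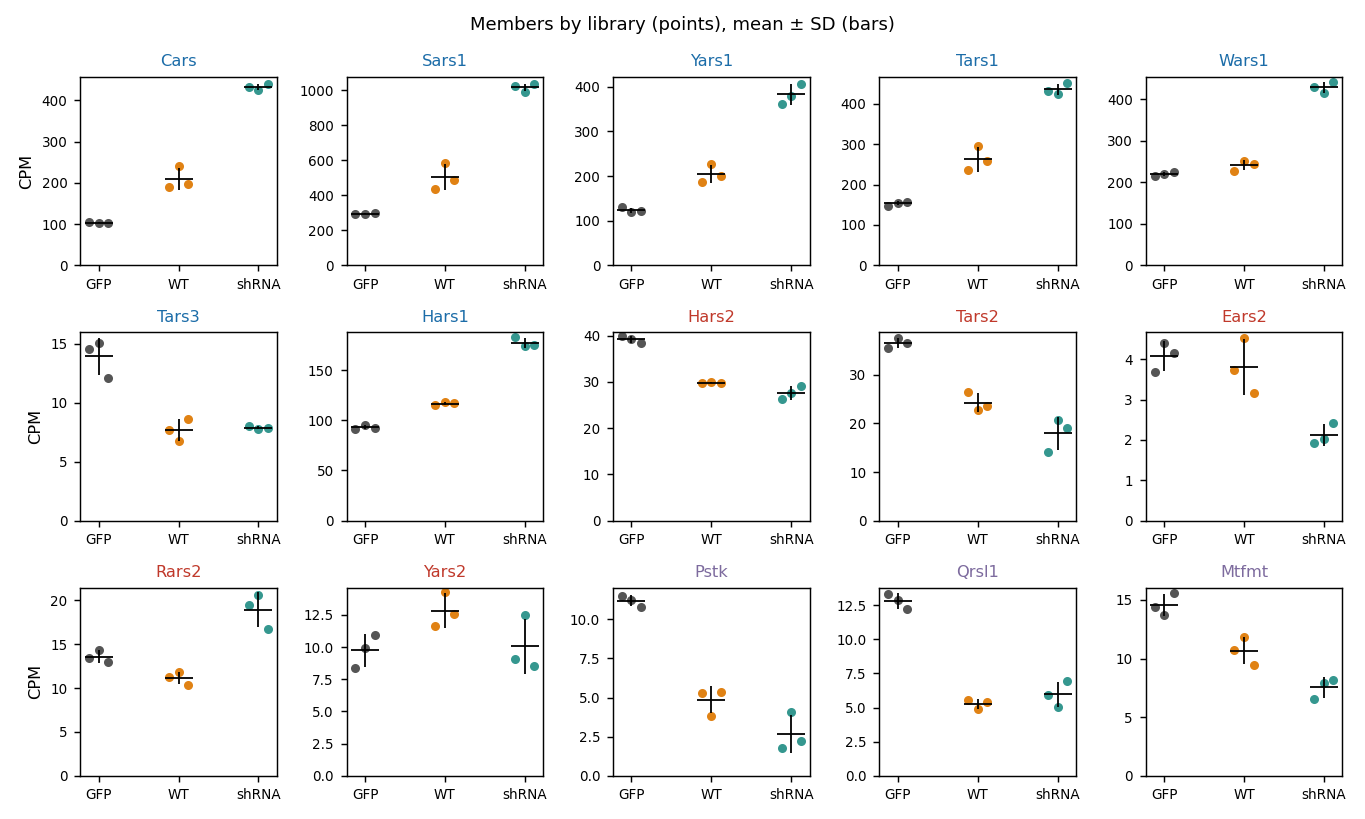
CPM per library (points) with mean ± SD (bars, n = 3) for 15 members in the GFP, Yap1 WT and Yap1 shRNA groups, with the y axis of each panel starting at 0. Cars, Sars1, Yars1 and Tars1 climb from GFP through WT to shRNA, Wars1 stands out in the hairpin group alone, and Tars2, Pstk and Qrsl1 have their highest libraries in the GFP group.

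Tars3, a second cytosolic threonyl-tRNA synthetase, went the other way from Tars1. It was at 14.6, 15.1 and 12.1 CPM with GFP, 7.70, 6.75 and 8.63 CPM with Yap1 WT and 7.99, 7.76 and 7.89 CPM with the hairpin. All 6 libraries with a Yap1 vector lay below all 3 GFP libraries, and these 2 vector groups overlapped. The falls were 1.81-fold with Yap1 WT (log2 -0.86 ± 0.13 SE, edgeR adjusted p = 5.74e-05) and 1.77-fold with the hairpin (log2 -0.82 ± 0.14 SE, edgeR adjusted p = 0.000109). It was the only cytosolic member called lower against GFP in either comparison, and per length it was the least abundant of the 21, at 10.2 ± 1.20 TPM with GFP.

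Most of the other cytosolic members rose by smaller factors. With the hairpin, the log2 fold changes against GFP were 1.38 for Iars1 (isoleucine), 1.27 for Eprs (glutamate and proline in 1 protein), 1.19 for Aars (alanine), 1.15 for Nars1 (asparagine) and 1.10 for Vars1 (valine). Their values with Yap1 WT, against the same GFP libraries, were 0.54, 0.46, 0.40, 0.57 and 0.50. Rars1 (arginine) rose by 0.78 and 0.51, and Farsb, the beta subunit of the phenylalanyl-tRNA synthetase, by 0.70 and 0.36. Mars1 (methionine) rose by 0.48 and 0.19 and Lars1 (leucine) by 0.47 and 0.19. All of these were called by edgeR's test in both comparisons. The Mars1 call with Yap1 WT was lost without GFP library 2 (edgeR adjusted p = 0.0503) or GFP library 3 (0.0537), and with no count filter (0.0591).

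Nars1 and Gars had the next highest mean TPM over all 9 libraries among cytosolic members, although with the hairpin alone Eprs (359 TPM) and Aars (327 TPM) exceeded Gars (311 TPM). Nars1 was at 283, 283 and 284 CPM with GFP, 388, 447 and 431 CPM with Yap1 WT and 621, 628 and 641 CPM with Yap1 shRNA, 3 groups with no overlap. Gars (glycine) and Kars (lysine) differ from the rest in that each single gene encodes both the cytosolic and the mitochondrial enzyme. Gars was at 309, 314 and 320 CPM with GFP, 391, 447 and 430 CPM with Yap1 WT and 457, 493 and 513 CPM with the hairpin. Kars was at 140, 145 and 144 CPM with GFP, 188, 209 and 208 CPM with Yap1 WT and 222, 225 and 227 CPM with the hairpin. Both were separated by group in the same order as the cytosolic genes. Their log2 fold changes against GFP were 0.63 ± 0.06 (Gars, SE) and 0.65 ± 0.05 (Kars) with the hairpin and 0.43 ± 0.06 and 0.50 ± 0.05 with Yap1 WT, with edgeR adjusted p between 1.36e-07 and 4.99e-05.

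Wars1, the tryptophanyl-tRNA synthetase and a known interferon-induced gene, rose mainly with the hairpin. Its CPM values were 216, 220 and 225 with GFP, 228, 252 and 243 with Yap1 WT and 429, 415 and 441 with Yap1 shRNA. The hairpin libraries stood clear of the rest, and the lowest WT library was just above the highest GFP library. Log2 fold changes were 0.96 ± 0.05 (SE, edgeR adjusted p = 2.13e-09) with the hairpin and 0.13 ± 0.05 (edgeR adjusted p = 0.0456) with Yap1 WT. The small rise with Yap1 WT was lost on leaving out GFP 1, 2 or 3, WT 2 or 3, or shRNA 2 or 3, with edgeR adjusted p between 0.0516 and 0.134. That rise was also lost with no count filter (edgeR adjusted p = 0.235) and at equal depth (0.0588). Wars1 was 1.78-fold lower with Yap1 WT than with the hairpin (log2 -0.83 ± 0.05 SE, edgeR adjusted p = 4.02e-08).

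Interferon response genes followed another order than Wars1. All 17 tested genes of that list rose in each comparison with GFP, with a median log2 fold change of 6.48 with Yap1 WT and 4.52 with the hairpin. Compared directly, 17 of 17 had the higher level with Yap1 WT (31.2% of all genes), with a median of 1.60. Isg15, a ubiquitin-like interferon effector, averaged 1.96 CPM with GFP, 175 CPM with Yap1 WT and 60.8 CPM with the hairpin. The letters GAAA, any 2 bases and GAAA again, the core of interferon response elements, were not in the Wars1 window on either strand. They were in only 3.77% of all windows, so their absence is common. What raised Wars1 was not tested.

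Dars, Qars1 and Farsa changed in 1 of the comparisons with GFP each. Dars (aspartate) rose with the hairpin (log2 0.38 ± 0.07 SE, edgeR adjusted p = 0.000247) and had -0.04 ± 0.07 with Yap1 WT (edgeR adjusted p = 0.643). Qars1 (glutamine) rose with Yap1 WT (0.42 ± 0.05 SE, edgeR adjusted p = 1.78e-05) and had 0.12 ± 0.06 with the hairpin (edgeR adjusted p = 0.0629), a value that was called without GFP library 3 (0.0484) and with RLE scaling, library size alone, the stricter filter (0.0312 to 0.0402) or limma on log2(TPM + 1) (0.000129). Qars1 was the cytosolic member called higher with Yap1 WT than with the hairpin (log2 0.30 ± 0.06 SE, edgeR adjusted p = 0.000439). Farsa, the alpha subunit of the phenylalanine enzyme, rose with Yap1 WT (0.22 ± 0.05 SE, edgeR adjusted p = 0.00308) and had 0.10 ± 0.06 with the hairpin (edgeR adjusted p = 0.111), whereas its partner subunit Farsb was called in both. With limma on log2(TPM + 1), Farsa was called higher with the hairpin too (log2 0.31, adjusted p = 0.00041). Reads of these genes may be split with neighbours in rn6: Qars1 lies within the span of Celsr3 and Dars shares 421 bases with LOC100360508, both on the same strand, and Mars1 shares 64 bases with Ddit3 on the opposite strand. LOC100911132, a glutaminyl-tRNA synthetase-like fragment, had 1 read in all 9 libraries and was not tested.

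More mitochondrial synthetases fell than rose in each comparison with GFP. With Yap1 WT most were not called, and the number of falls depended on the scaling, as given below. With Yap1 shRNA against GFP, 10 of 17 fell (39.1% of all genes), 1 rose (39.2%) and 6 were not called, with a median log2 fold change of -0.51. With Yap1 WT, 7 of 17 fell (31.8% of all genes), 1 rose (32%) and 9 were not called, with a median of -0.26 (range -0.59 to 0.39). A fall of at least 2-fold was called for 2 with the hairpin, Tars2 among them (16.6% of all genes), where with Yap1 WT the largest fall was the 1.51-fold fall of Tars2 (7.39% of all genes fell at least 2-fold). Libraries did not overlap those of GFP for 11 of 17 members with the hairpin (80.2% of all genes) and 10 of 17 with Yap1 WT (70.7%), shares below those of all genes. The class is far less abundant than the cytosolic one, so its values rest on fewer reads.

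**Figure D3:**
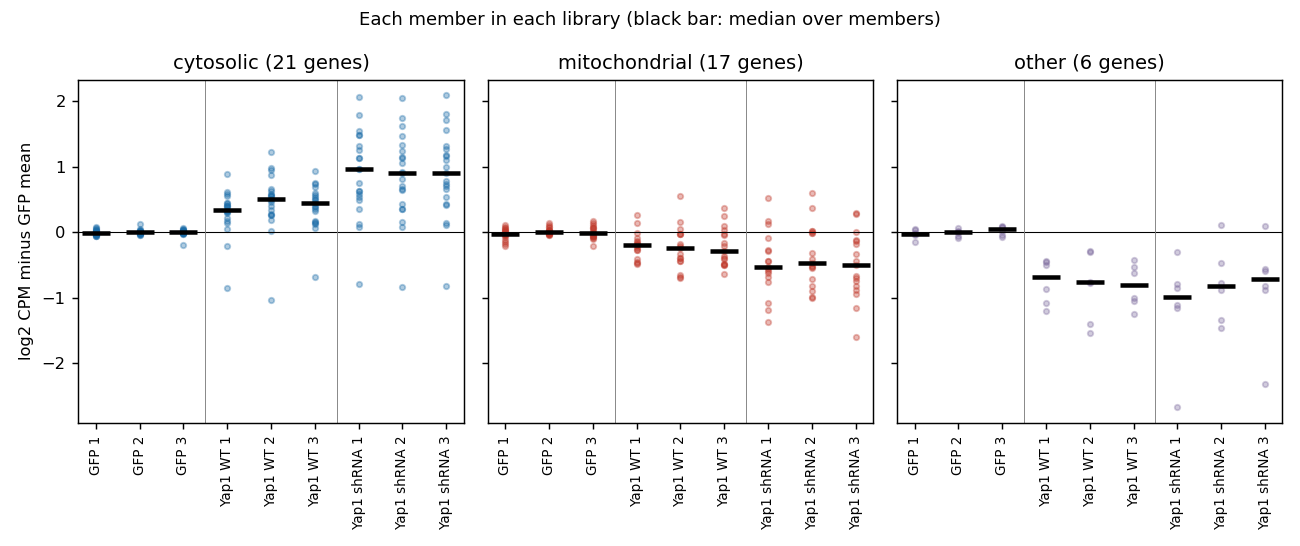
Log2 CPM minus the GFP mean (y axis) of each tested member (points) in each of the 9 libraries, in panels for the cytosolic, mitochondrial and other genes, with a black bar at the median. The cytosolic medians are 0.34 to 0.51 in the Yap1 WT libraries and 0.90 to 0.96 in the shRNA libraries, and the mitochondrial medians are -0.18 to -0.28 and -0.47 to -0.53.

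Tars2, the mitochondrial threonyl-tRNA synthetase (chromosome 2, 197861071 to 197881347, rn6), was at 35.6, 37.6 and 36.6 CPM with GFP, 26.5, 22.7 and 23.6 CPM with Yap1 WT and 14.1, 20.8 and 19.0 CPM with Yap1 shRNA. The groups did not overlap, in the reverse order of Tars1. Tars2 fell 2.04-fold with the hairpin (log2 -1.03 ± 0.11 SE, edgeR adjusted p = 2.09e-06) and 1.51-fold with Yap1 WT (log2 -0.59 ± 0.10 SE, edgeR adjusted p = 0.000186). Lars2, the leucine enzyme, was at 19.6, 20.6 and 18.3 CPM with GFP, 14.3, 12 and 13.8 CPM with Yap1 WT and 11.5, 9.78 and 10.6 CPM with the hairpin. These groups were separated too. Its log2 fold changes were -0.87 ± 0.11 (SE) with the hairpin and -0.54 ± 0.10 with Yap1 WT (edgeR adjusted p = 8.19e-06 and 0.000305).

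Iars2, the isoleucine enzyme, was the most abundant mitochondrial member per length, at 29.1 ± 1.03 TPM with GFP (SD, n = 3). In CPM it was at 108, 105 and 106 with GFP, 76.2, 68.0 and 76.2 with Yap1 WT and 66.5, 72.7 and 65.7 with the hairpin. Both vector groups were below GFP and overlapped each other. The falls were 1.56-fold with the hairpin (log2 -0.64 ± 0.06 SE, edgeR adjusted p = 7.49e-07) and 1.45-fold with Yap1 WT (log2 -0.53 ± 0.06 SE, edgeR adjusted p = 5.36e-06).

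Ears2, Vars2 and Pars2 were called lower with the hairpin and were not called with Yap1 WT. Ears2, the glutamate enzyme, was at 3.68, 4.40 and 4.15 CPM with GFP, 3.72, 4.53 and 3.16 CPM with Yap1 WT and 1.92, 2.02 and 2.42 CPM with the hairpin. It fell 1.92-fold with the hairpin (log2 -0.94 ± 0.22 SE, edgeR adjusted p = 0.00168), and with Yap1 WT, where the libraries overlapped those of GFP, it had -0.10 ± 0.18 (edgeR adjusted p = 0.650). Vars2 (valine, -0.72 ± 0.14 SE) and Pars2 (proline, -0.56 ± 0.14) also fell with the hairpin, and had -0.07 ± 0.12 and 0.03 ± 0.12 with Yap1 WT. Compared directly, Ears2, Vars2 and Pars2 were each higher with Yap1 WT than with the hairpin, by 0.84, 0.64 and 0.59 (edgeR adjusted p between 0.00161 and 0.00594).

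Aars2, the alanine enzyme, fell by 0.77 with the hairpin and by 0.36 with Yap1 WT on the log2 scale. The call with Yap1 WT was lost with library size alone (edgeR adjusted p = 0.0608), at equal depth (0.0643) and with limma on log2(TPM + 1) (0.119). Cars2 (cysteine) had -0.37 ± 0.14 (SE, edgeR adjusted p = 0.0259) with the hairpin and -0.41 ± 0.12 (0.0121) with Yap1 WT. Both Cars2 calls were lost without GFP library 3 (edgeR adjusted p = 0.0915 and 0.0608) and with DESeq2 (adjusted p = 0.116 and 0.0652). The hairpin call was also lost without GFP 2 (edgeR adjusted p = 0.0528) or shRNA 1 (0.0759), at equal depth (0.105) and with limma on log2(TPM + 1) (0.0719). The WT call was also lost without WT 3 (edgeR adjusted p = 0.0520) and with library size alone (0.0692). Sars2, Nars2, Wars2, Fars2 and LOC100911305 (Mars2), for serine, asparagine, tryptophan, phenylalanine and methionine, were not called in either comparison with GFP, with log2 values between -0.26 and 0.14. Sars2 was called lower with the hairpin when shRNA library 2 was left out (log2 -0.39, edgeR adjusted p = 0.0254) and with no count filter (-0.32, 0.0499). Fars2 was called higher with the hairpin by limma on log2(TPM + 1) (log2 0.35, adjusted p = 0.00233). Fars2 had the second highest mean TPM of the mitochondrial enzymes over all 9 libraries, but with GFP alone (16.7 TPM) it was below Iars2, Tars2 (20.6 TPM) and Hars2 (16.9 TPM). Its CPM values, 22.5, 22.3 and 21.0 with GFP, 21.8, 21.5 and 21.4 with Yap1 WT and 24.0, 21.8 and 26.6 with the hairpin, overlapped throughout.

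Rars2 and Yars2 departed from the class. Rars2, the arginine enzyme (chromosome 5, 50075510 to 50127625, rn6), was at 13.4, 14.4 and 13.0 CPM with GFP, 11.3, 11.8 and 10.4 CPM with Yap1 WT and 19.5, 20.6 and 16.7 CPM with the hairpin. No groups overlapped, and GFP lay between the other groups. It rose 1.39-fold with the hairpin (log2 0.48 ± 0.10 SE, edgeR adjusted p = 0.000965) and fell 1.22-fold with Yap1 WT (log2 -0.28 ± 0.10 SE, edgeR adjusted p = 0.0272). The fall with Yap1 WT was lost without GFP 1 (edgeR adjusted p = 0.0507), GFP 2 (0.100) or WT 3 (0.102). It was also lost with library size alone (log2 -0.15, edgeR adjusted p = 0.22), DESeq2 (0.116) and limma on log2(TPM + 1) (-0.11, adjusted p = 0.36). Directly compared, Rars2 was 1.70-fold lower with Yap1 WT than with the hairpin (log2 -0.76 ± 0.11 SE, edgeR adjusted p = 4.87e-05).

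In rn6 Rars2 shares 7746 bases of its span with Slc35a1 on the same strand. Slc35a1, a transporter of CMP-sialic acid, went the other way with the hairpin, with log2 fold changes of -0.94 there and -0.30 with Yap1 WT. Yars2, the tyrosine enzyme, was at 8.40, 9.95 and 10.9 CPM with GFP, 11.6, 14.3 and 12.6 CPM with Yap1 WT and 9.11, 12.5 and 8.54 CPM with the hairpin. It rose with Yap1 WT (log2 0.39 ± 0.14 SE, edgeR adjusted p = 0.0294), with the WT libraries just above the GFP ones, and had 0.04 ± 0.16 with the hairpin (edgeR adjusted p = 0.827). That rise was lost without GFP 1, GFP 2, WT 2 or WT 3 (edgeR adjusted p 0.0580 to 0.123) and with DESeq2 (adjusted p = 0.0513).

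Hars1 and Hars2, the cytosolic and mitochondrial histidine enzymes, lie head to head on chromosome 18, with 115 bases between them in the deposited rn6 coordinates and 97 bases between the RefSeq genes in GRCr8 (chr18:28672713-28672809). The stretch between them is shown on the Hars2 strand, because the genes on its sides differed in direction. It is in lower case throughout, since it holds none of the 3 motifs searched.
Hars1-Hars2: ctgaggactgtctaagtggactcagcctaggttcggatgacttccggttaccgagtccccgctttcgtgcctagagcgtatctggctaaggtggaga

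Hars1 was at 91.5, 95.7 and 92.6 CPM with GFP, 115, 118 and 117 CPM with Yap1 WT and 183, 174 and 175 CPM with Yap1 shRNA. Hars2 was at 40, 39.2 and 38.5 CPM with GFP, 29.7, 29.9 and 29.7 CPM with Yap1 WT and 26.2, 27.5 and 29.1 CPM with the hairpin. Hars1 climbed and Hars2 dropped from GFP, with no overlap of either vector group with GFP for either gene. Log2 fold changes with the hairpin were 0.92 ± 0.05 (SE) for Hars1 and -0.51 ± 0.07 for Hars2 (edgeR adjusted p = 1.31e-09 and 1.28e-05). With Yap1 WT they were 0.32 ± 0.05 and -0.40 ± 0.06 (edgeR adjusted p = 5.91e-05 and 9.33e-05).

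The balance between the compartments can be read per length, as the ratio of TPM of the cytosolic to the mitochondrial enzyme for the same amino acid. Summed over each class, the cytosolic members held 1715 to 1773 TPM in the GFP libraries, 2573 to 2981 TPM with Yap1 WT and 4234 to 4618 TPM with the hairpin. The mitochondrial members held 173 to 175, 160 to 166 and 147 to 157 TPM. The ratio of the sums was 9.93 to 10.1 with GFP, 15.5 to 18.6 with Yap1 WT and 26.9 to 30.2 with the hairpin, with no overlap between groups.

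Among 18 pairs of a cytosolic and a mitochondrial enzyme or subunit, all 3 hairpin libraries exceeded all 3 GFP libraries in 16, and all 3 WT libraries exceeded all 3 GFP libraries in 16. For single genes, the libraries lay apart from GFP, in either direction, for 80.2% of all genes with the hairpin and 70.7% with Yap1 WT. No such share was computed for ratios of other gene pairs, and these ratios restate the class shifts given above. The pairs are not independent, since Eprs, Tars2 and Fars2 each enter more than once. Threonine had the ratios Tars1 to Tars2 of 3.58, 3.57 and 3.72 with GFP, 7.66, 11.8 and 9.72 with Yap1 WT and 28.0, 18.9 and 21.8 with the hairpin. Cysteine (Cars to Cars2) had 7.66, 6.56 and 6.02 with GFP, 16, 21.5 and 19.1 with Yap1 WT and 40.6, 36.9 and 38.1 with the hairpin. Both amino acids thus separated the 3 groups. Arginine had its highest ratios with Yap1 WT: Rars1 to Rars2 stood at 6.05, 6.02 and 6.36 with GFP, 10.1, 10.6 and 11.2 with Yap1 WT and 7.18, 7.17 and 8.62 with the hairpin. For phenylalanine the alpha subunit ratio, Farsa to Fars2, was 2.41, 2.5 and 2.65 with GFP and 2.49, 2.62 and 2.21 with the hairpin, which overlapped.

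**Figure D4:**
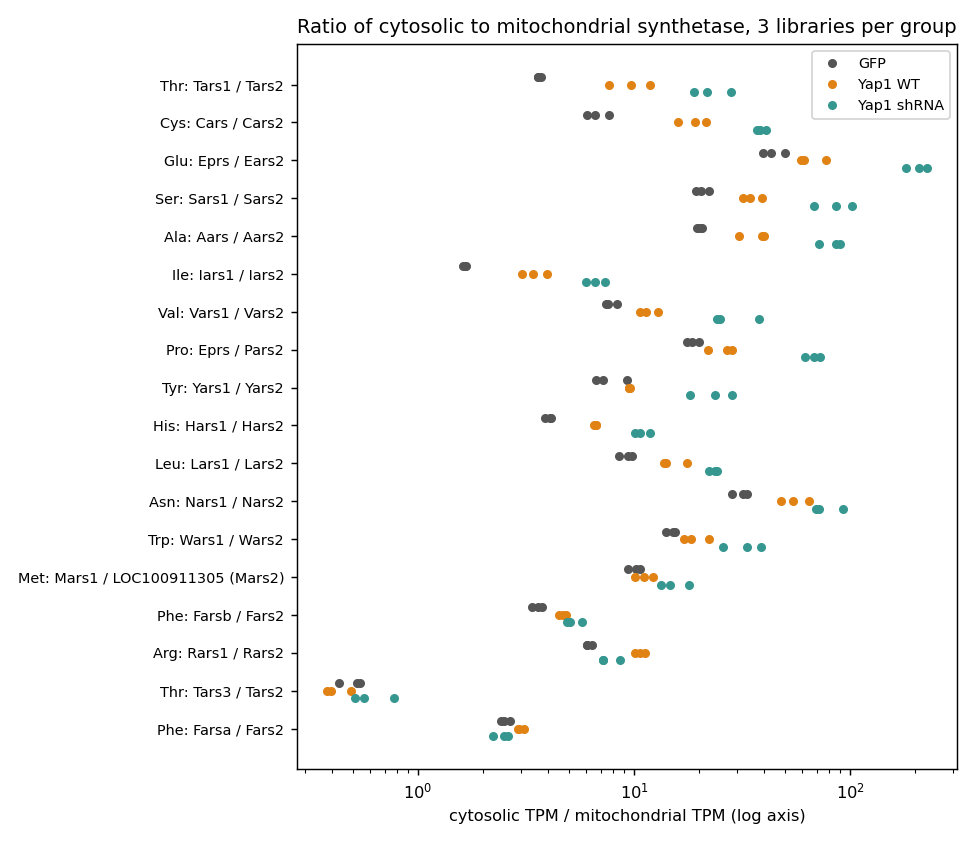
Ratio of cytosolic to mitochondrial TPM (log x axis) for 18 pairs of enzymes charging the same amino acid, with 1 point per library and colours for GFP, Yap1 WT and Yap1 shRNA. Threonine (Tars1 to Tars2) runs from 3.57 with GFP to 28.0 with the hairpin, while arginine has its highest values with Yap1 WT and Farsa to Fars2 overlaps between GFP and the hairpin.

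The genes that act on charged tRNAs were lower in the vector groups. All 6 tested fell with Yap1 WT (31.8% of all genes), with a median log2 fold change of -0.71, and 5 of 6 fell with the hairpin (39.1% of all genes), with a median of -0.84. Qrsl1, the catalytic A subunit of the mitochondrial amidotransferase, was at 13.3, 12.9 and 12.2 CPM with GFP, 5.54, 4.87 and 5.38 CPM with Yap1 WT and 5.91, 5.06 and 6.92 CPM with the hairpin. The vector groups overlapped each other and lay below GFP. It fell 2.42-fold with Yap1 WT (log2 -1.28 ± 0.13 SE, edgeR adjusted p = 1.62e-06) and 2.14-fold with the hairpin (log2 -1.10 ± 0.14 SE, edgeR adjusted p = 7.4e-06).

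Gatb, the B subunit, was at 15.1, 17.6 and 17.8 CPM with GFP, 9.19, 9.92 and 8.38 CPM with Yap1 WT and 9.75, 12.1 and 11.4 CPM with Yap1 shRNA. Gatc, the C subunit and the most abundant of the 6 per length, was at 38.4, 39.9 and 39.8 CPM with GFP, 28.0, 23.1 and 29.4 CPM with Yap1 WT and 21.9, 23.1 and 26.1 CPM with the hairpin. All 3 subunits of the complex were lower in every vector library than in every GFP library. Of all genes, 70.7% with Yap1 WT and 80.2% with the hairpin lay apart from GFP in either direction. Log2 fold changes with Yap1 WT and the hairpin were -0.88 ± 0.11 and -0.60 ± 0.12 (SE) for Gatb and -0.55 ± 0.09 and -0.73 ± 0.10 for Gatc, with edgeR adjusted p of at most 0.000531. Mtfmt, the formyltransferase, was at 14.4, 13.7 and 15.6 CPM with GFP, 10.7, 11.8 and 9.49 CPM with Yap1 WT and 6.55, 7.93 and 8.21 CPM with the hairpin. Its groups did not overlap, and its log2 fold changes were -0.45 ± 0.11 (SE) with Yap1 WT and -0.95 ± 0.13 with the hairpin (edgeR adjusted p = 0.00351 and 1.95e-05).

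Pstk, the kinase that phosphorylates seryl-tRNA on the way to selenocysteine, had the largest fall of all members with the hairpin and the second largest, after Qrsl1, with Yap1 WT. It was at 11.5, 11.2 and 10.8 CPM with GFP, 5.30, 3.85 and 5.38 CPM with Yap1 WT and 1.76, 4.05 and 2.25 CPM with the hairpin. Both vector groups were below GFP, and they overlapped through hairpin library 2. The falls were 4.17-fold with the hairpin (log2 -2.06 ± 0.23 SE, edgeR adjusted p = 2.46e-06) and 2.30-fold with Yap1 WT (log2 -1.20 ± 0.19 SE, edgeR adjusted p = 8.95e-05). In rn6 its span overlaps those of Dmbt1 and Ikzf5 on the same strand, so reads in shared sequence are uncertain. Ikzf5, a zinc finger gene, rose by log2 0.95 with the hairpin and 0.25 with Yap1 WT, the opposite direction to Pstk.

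Sepsecs, the synthase of the last selenocysteine step, did not follow Pstk with the hairpin. It was at 14.5, 14.3 and 15.6 CPM with GFP, 10.8, 12.1 and 10.2 CPM with Yap1 WT and 12, 16 and 15.8 CPM with the hairpin, where the libraries overlapped GFP. Its log2 fold change was -0.43 ± 0.12 (SE, edgeR adjusted p = 0.00567) with Yap1 WT and -0.02 ± 0.12 (edgeR adjusted p = 0.890) with the hairpin. The Sepsecs call with Yap1 WT was lost with limma on log2(TPM + 1) (log2 -0.22, adjusted p = 0.104). LOC100909836 was not tested, being at 0 to 0.338 CPM with GFP, 0.0855 to 0.993 CPM with Yap1 WT and 0.805 to 1.12 CPM with the hairpin.

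Yap1 WT and Yap1 shRNA were also compared directly, a comparison that shares its libraries with the 2 above. Of the cytosolic members, 18 of 21 were lower with Yap1 WT (31.3% of all genes), 1 was higher (31.2%), and the median log2 fold change was -0.58 against 0.04 over all genes. Called either way were 62.5% of all genes. The groups did not overlap for 20 of 21 (66.1% of all genes). Cars (-1.05 ± 0.07 SE), Sars1 (-1.01 ± 0.08) and Yars1 (-0.91 ± 0.07) differed most, with edgeR adjusted p between 9.99e-08 and 3.32e-07. Gars (-0.21 ± 0.06) and Kars (-0.15 ± 0.05), which serve both compartments, were among the closest between the vectors. The Kars call was lost with no count filter (edgeR adjusted p = 0.105) and with the 6 compared libraries alone (0.056).

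Of the mitochondrial members, 7 of 17 were higher with Yap1 WT than with shRNA (31.2% of all genes), 1 (Rars2) was lower (31.3%) and 9 were not called, so that fewer were called than the 62.5% over all genes. Besides Ears2, Vars2 and Pars2, those higher included Tars2 (0.44), Aars2 (0.41) and Lars2 (0.33). Of the others, Pstk (0.86 ± 0.26 SE, edgeR adjusted p = 0.0105) and Mtfmt (0.49 ± 0.14, 0.00702) were higher and Sepsecs (-0.41 ± 0.13, 0.0136) lower with Yap1 WT. Calls were lost for Gars without WT 1 or shRNA 3, Kars without WT 1, shRNA 2 or shRNA 3, Lars2 without WT 1, WT 3, shRNA 2 or shRNA 3, Pstk without shRNA 1 and Sepsecs without WT 3, shRNA 2 or shRNA 3 (edgeR adjusted p 0.0542 to 0.124). Calls were gained for Fars2 and Sars2 without shRNA 2, Iars2 and Gatc without WT 2, Yars2 without WT 1 or shRNA 2 and Gatb without shRNA 1 (0.0135 to 0.0467).

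Within the Yap1 WT group, library 2 was the highest for 19 of 21 cytosolic members. The share of all genes that were highest in library 2 was not computed. WT libraries 1 and 2 differed most of all replicate pairs (chi-square per degree of freedom 11.43). Library 2 also had the most Yap1 (812 CPM), the most Atf4 (707 CPM) and the lowest cardiomyocyte marker sum (5592 CPM) of the group. How these are linked was not tested, and across groups the hairpin libraries, with the least Yap1, had the highest levels of most cytosolic members. Without library 2, 18 of 21 cytosolic members rose with Yap1 WT against GFP, and Wars1 was no longer among them. Of all 13708 tested genes, 4033 rose without library 2 and 4391 with it. Scaling mattered more for the mitochondrial class. With library size alone in place of TMM, the median of all genes against GFP moved to 0.138 for Yap1 WT, the split over all genes from 4391 higher and 4360 lower to 5637 and 3344, and mitochondrial falls from 7 to 4, with cytosolic rises at 19. On log2(TPM + 1) with limma the same split was 5419 and 2894, with a median of 0.136, 5 mitochondrial falls and 19 cytosolic rises.

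Genes at neighbouring steps put these values in place. The multi-synthetase complex list (8 of the members and its 3 scaffold proteins) had 9 of 11 higher with Yap1 WT (32% of all genes) and 10 of 11 with the hairpin (39.2%), and the rest were not called. Its median log2 fold changes were 0.42 and 0.48. The scaffold Eef1e1 rose by 0.46 and 0.92, and Aimp1 by 0.28 and 0.39. Cars, Sars1, Yars1 and Tars1, the largest risers, are not on that list.

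The 13 members commonly listed as ATF4 targets all rose in each comparison with GFP (32% of all genes with Yap1 WT, 39.2% with the hairpin), with medians of 0.50 and 1.19. All 13 are cytosolic, and of the whole cytosolic class 19 of 21 rose with Yap1 WT and 18 of 21 with the hairpin, with medians of 0.43 and 0.92. The 13 are part of those 21, so the class values do not stand apart from theirs. All 9 cytosolic rises of at least 2-fold with the hairpin were in listed targets. Of the unlisted cytosolic members, Hars1, Rars1, Farsb, Kars and Dars also rose with the hairpin. Qars1 and Farsa were not called there and Tars3 fell. Of 28 other genes, ATF4 and targets outside the members, 19 rose and 4 fell with Yap1 WT (32% and 31.8% of all genes; median 0.46) and 20 rose and 5 fell with the hairpin (39.2% and 39.1% of all genes; median 0.96). Atf4 itself rose by 0.41 ± 0.07 (SE) and 1.41 ± 0.07, and Sesn2, a stress-induced regulator of nutrient sensing, by 1.4 and 3.51. Slc7a11, the cystine importer, rose by 1.4 and 2.12, Cebpb by 1.56 and 2.09, and Atf3 by 2.63 and 5.63. Cth, which makes cysteine by transsulfuration, fell by 0.28 with Yap1 WT and by 1.13 with the hairpin.

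Genes of the steps before and after charging were called in both directions. Of 26 genes of tRNA maturation and export, 13 rose and 7 fell in each comparison (32% and 31.8% of all genes with Yap1 WT, 39.2% and 39.1% with the hairpin, shares that stand beside the lists that follow too), with medians of 0.19 and 0.21. Xpot, the tRNA exporter and also on the list of ATF4 targets, rose by 0.50 with Yap1 WT and 1.71 with the hairpin, Elac2, which trims tRNA 3′ ends, by 0.90 and 1.51, while Hsd17b10, a subunit of mitochondrial RNase P, fell by 0.83 and 1.68. Of 7 cytosolic elongation factor genes, which bring charged tRNA to the ribosome or move it on, 2 rose and 1 fell with Yap1 WT, and 3 rose and 1 fell with the hairpin. Eef1a2, the muscle form of the elongation factor that carries charged tRNA, was the one that fell, by 1.37 and 1.52, while Eef1a1 had 0 and 0.14.

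On the mitochondrial side, 8 of 12 translation factor genes fell with Yap1 WT (31.8% of all genes) and the rest were not called, and 7 fell and 1 rose with the hairpin (39.1% and 39.2%), with medians of -0.39 and -0.38. Guf1, a mitochondrial elongation factor, fell by 0.52 and 0.99, and Gfm1, the mitochondrial elongation factor G, by 0.50 and 0.38. Mitochondrial tRNA modification genes were mixed, with 5 of 12 higher and 2 lower with Yap1 WT and 6 higher and 3 lower with the hairpin. Yrdc, which makes the threonylcarbamoyl group on tRNA, rose by 0.67 and 1.52, and Osgepl1, which places that group in mitochondria, fell by 0.50 and 1.5. Among 7 genes that edit mischarged tRNA or release peptides from it, 1 rose and 2 fell with Yap1 WT, and 4 fell with the hairpin and 3 were not called.

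**Figure D5:**
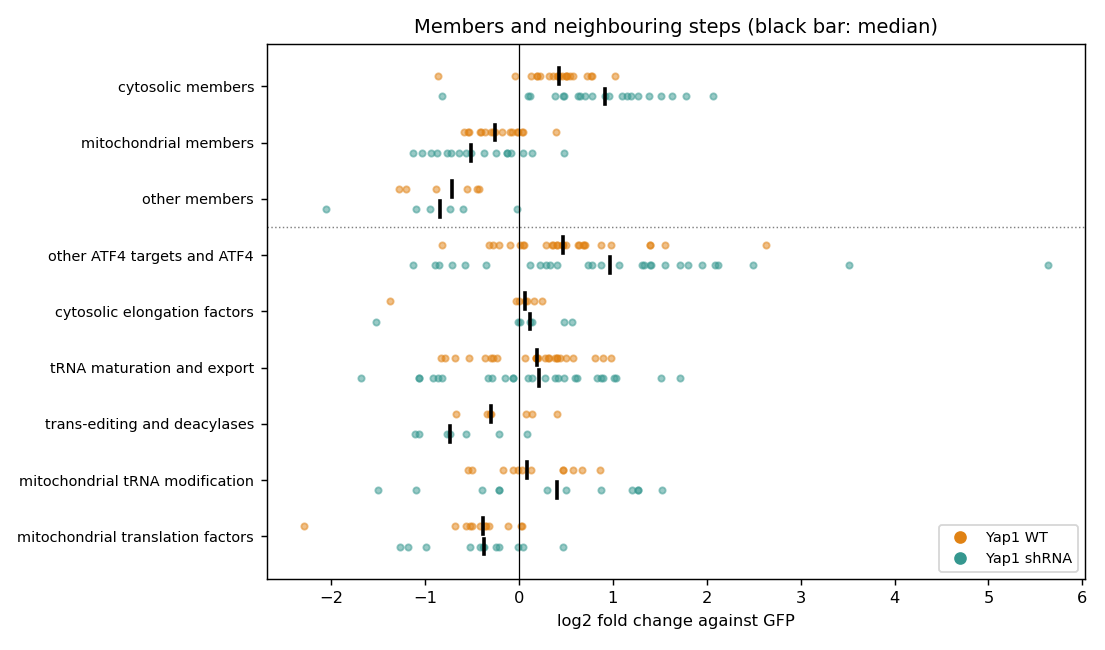
Log2 fold change against GFP (x axis) of each tested gene (points) in the member classes and in 6 neighbouring lists, with Yap1 WT above Yap1 shRNA in each row and a black bar at the median. Cytosolic members (medians 0.43 and 0.92) and the other ATF4 targets (0.46 and 0.96) lie mostly right of 0, and mitochondrial members (-0.26 and -0.51) and mitochondrial translation factors (-0.39 and -0.38) mostly left of it.

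The letters GCGC, any 1 base and TGCGC, the core of sites for NRF1, a regulator of genes for mitochondrial proteins, were in 3 of 16 mitochondrial windows (Iars2, Pars2 and Wars2; 18.8%), 3 of 18 cytosolic windows (Farsb, Sars1 and Tars1; 16.7%) and 1 of 5 other windows (Pstk; 20.0%), against 4.71% of all windows, both strands searched. The members with these letters included genes that rose (Sars1, Tars1), fell (Iars2, Pstk) and were not called against GFP (Wars2).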

How the data were processed

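The authors deposited 1 table of expected counts and TPM per gene for 9 libraries. Per the submitters' processing notes the build was rn6 and the tools HISAT2, Bowtie2, RSEM 1.3.1 and DESeq2 1.4.5; the strand setting is not given in the sources used here. Expected counts (89.8% already whole) were rounded. EdgeR 4.0.16 (R 4.3.3) fitted all 9 libraries with group as the only term (filterByExpr, TMM, quasi-likelihood F test, two-sided, Benjamini-Hochberg over 13708 genes, called under 0.05, no fold minimum). CPM are TMM-scaled and compare groups; the deposited TPM compare genes. SEs were derived from the F statistic (absolute log2 fold change over its square root). The script was tested on simulated data.

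Members and gene lists were chosen with earlier results of these data known. Values in every library are given for the 3 largest called rises and falls per class and comparison with GFP whose groups do not overlap, members called in opposite directions, Wars1, Gars, Kars, Hars1, Hars2 and the 3 highest mean TPM per class; other lists are shown by up to 4 genes of lowest p, and further genes from them, such as Atf4, Cth and Aimp1, were picked after their values were seen. Of 46 members, 44 matched RefSeq by gene ID, 7 under another symbol. Trmt61b and Cd163, on the lists, were not analysed here. The values of 1 mitochondrial member, counted in the class totals, and 1 promoter stretch are not reported here.

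Replicate libraries differed beyond sampling noise (chi-square per degree of freedom 2.34 to 11.43). The 18 alternatives were RLE scaling, library size alone, DESeq2 1.42.0, limma 3.58.1 on log2(TPM + 1), no and stricter count filters (5 CPM in 3 libraries), a replicate block, the 6 compared libraries alone, equal depth and leaving out each library.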

Additional observations from a re-analysis of the deposited data

How the results depend on the processing

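No called member changed sign under any of the 18 alternatives, and cytosolic rises against GFP stayed between 17 and 19 (Yap1 WT) and 18 and 19 (hairpin) on leaving out single libraries. Other counts moved. Mitochondrial rises with Yap1 WT went from 1 to 0 with DESeq2 and ranged from 0 to 1 on leaving out libraries, and falls went from 7 to 4 with library size alone. Over all genes, 4006 were higher with DESeq2 (main 4391) and 3344 lower with library size alone (main 4360). With the hairpin, mitochondrial rises were 2 on log2(TPM + 1), where Fars2 was gained, and cytosolic Farsa and Qars1 were gained there too. Other rises were 1 with DESeq2 or no count filter and 0 to 1 on leaving out libraries, where LOC100909836 entered the test. All genes higher with the hairpin were 6294 on log2(TPM + 1), 5127 with DESeq2 and 4950 with no count filter (main 5371). Between the vectors, library size alone gave 2 cytosolic rises (main 1), 12 mitochondrial rises (main 7) and 0 other falls (main 1), and lost the Gars and Kars falls. Over all 13708 genes, those called higher there went from 4273 to 5344 and those called lower from 4289 to 3585. Mitochondrial rises there were 6 with DESeq2, which lost Lars2, and 5 on log2(TPM + 1), which lost Lars2 and Aars2. There, log2(TPM + 1) gave 2 mitochondrial falls (main 1) and 2 other falls, equal depth gave 2 other falls, and leaving out libraries gave 1 to 2 mitochondrial falls, 1 to 3 other rises (main 2) and 0 to 2 other falls. Between the vectors, all genes higher and lower were 3705 and 3937 with DESeq2, 3828 and 4541 on log2(TPM + 1) and 3905 and 4038 at equal depth. On leaving out libraries they were 3896 to 4242 and 3982 to 4209. The cause of these shifts was not tested. The median log2 fold change of all genes was 0.152 between the vectors with library size alone and 0.156 for the hairpin against GFP on log2(TPM + 1), against 0.037 and -0.012 with TMM on counts. Same-numbered libraries deviated together only weakly (correlations 0.012 to 0.17, and 5 of 9 libraries correlated best with their own number), so numbers were not taken as pairs. With a replicate block, mitochondrial members higher with Yap1 WT than with the hairpin were 8 instead of 7 (Yars2, edgeR adjusted p = 0.0463), and no other member call changed. Of all genes, 4268 were higher in that comparison with the block and 4273 without it. The hairpin libraries had 6103221 to 6357403 reads, so low members such as Ears2 and Pstk are the least precise.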
